A study of Arabidopsis thaliana with 23 samples.

Results

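Axillary tissue of intact Arabidopsis thaliana brc1-2 plants was compared with that of intact wild-type (WT) plants, across all genes counted in both. The 6 RNA-seq libraries were picked by their labels and column headings: 3 from intact brc1-2 plants and 3 from intact WT plants, out of 23 samples of all assays in the study. brc1-2 is a T-DNA insertion allele of BRANCHED1 (BRC1). It is 1 mutant line, and both genotypes are in the Col-0 background. The material was buds with the leaf axil tissue of the rosette, from plants grown at 22 °C under 16 h of light and 8 h of dark, and neither group had been decapitated. The labels do not say how many plants a library held or whether replicate libraries are independent harvests, so the p-values measure the spread between these libraries, which may be technical. Another 3 libraries, from WT plants whose main shoot had been cut off when the inflorescence was about 1 cm tall, entered the same model and are quoted where they bear on a result. The headings number the brc1-2 columns 1, 2 and 2 again, and these are called libraries 1, 2a and 2b here. Values are given in that order for brc1-2, and in the order 1, 2 and 3 for WT.

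BRC1 encodes a TCP transcription factor that is expressed in young axillary buds and holds back their outgrowth. It is known to act where strigolactone, auxin, cytokinin, light and sugar signals meet, and to raise the HD-ZIP genes HB21, HB40 and HB53, which in turn raise NCED3, an enzyme gene of abscisic acid synthesis. Buds of brc1 mutants grow out into branches more readily than those of WT.

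Of 32833 genes in the count table, 21539 had enough counts to be tested. The libraries held 50559157 to 61228766 counts for brc1-2 and 50566515 to 57419543 for intact WT. Levels are given as counts scaled to a library total of 1000000 (CPM), with totals adjusted by the TMM method. Differences are log2 of brc1-2 over WT with a standard error (SE) taken from the test statistic, so that 1 means 2-fold higher in brc1-2. A gene is called, and said to have risen or fallen, at a Benjamini-Hochberg adjusted p under 0.05 in edgeR's quasi-likelihood test. The 9 libraries separated by group: the first principal component held 61.6% of the variance and the second 29.5%. Within groups, brc1-2 library 2b and WT library 3 deviated from their groups' means in a shared direction (r = 0.622 over 13830 genes), and results that move without both are named below.

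BRC1 (AT3G18550; TAIR10 chromosome 3, 6383289 to 6385815) was all but absent from the mutant libraries. It had 2, 4 and 2 counts in brc1-2, against 392, 373 and 423 counts in WT, or a mean of 0.0481 ± 0.0207 CPM in brc1-2 and 7.4 ± 0.742 CPM in WT (SD, n = 3 each). The log2 difference was -7.20 ± 0.26 (SE; edgeR adjusted p = 1.9e-19), which is the change the genotype is named for and checks the labels. No other gene within 100 kb came close to it: of 72 genes there 49 were tested, 14 were higher and 15 lower, and the 3 that fell at least 2-fold were AT3G18320 (-1.05), NAC058 (-1.07) and AT3G18720 (-2.06). The median log2 difference of the 49 was 0.10.

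The HD-ZIP genes and NCED3 were low in every brc1-2 library. HB21 (AT2G18550; chromosome 2, 8049371 to 8051316) stood at 0.476, 0.627 and 0.214 CPM in brc1-2, against 4.77, 6.33 and 5.76 CPM in WT, a log2 difference of -3.69 ± 0.24 (edgeR adjusted p = 1.7e-13). HB40 (AT4G36740; chromosome 4, 17314453 to 17316441) stood at 0.198, 0.287 and 0.247 CPM in brc1-2, against 4.33, 4.02 and 3.52 CPM in WT. HB53 (AT5G66700; chromosome 5, 26634275 to 26635885) stood at 0.119, 0.197 and 0.148 CPM in brc1-2, against 2.87, 3.89 and 3 CPM in WT. For each of these genes the highest brc1-2 library lay far under the lowest WT library, with HB40 16-fold lower in brc1-2 (SE 0.28 on the log2 scale, edgeR adjusted p = 9.6e-13) and HB53 at a log2 difference of -4.37 ± 0.30 (5.9e-13). NCED3 (AT3G14440; chromosome 3, 4831286 to 4834015), which cleaves 9-cis-epoxycarotenoids in the step that commits them to abscisic acid, had 0.516, 0.645 and 0.74 CPM in brc1-2, against 4.53, 4.19 and 4.61 CPM in WT (-2.80 ± 0.20; edgeR adjusted p = 1.3e-12).

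BRC2 (TCP12, AT1G68800; chromosome 1, 25845892 to 25850131), the closest relative of BRC1 and a weaker repressor of branching, differed from that pattern. It had 6.49, 6.18 and 6.21 CPM in brc1-2, against 5.03, 4.56 and 4.3 CPM in WT, so that the groups did not overlap and the gene was called higher (0.44 ± 0.12; edgeR adjusted p = 0.0017). That call ended when a trend on gene length was removed (0.14; adjusted p = 0.32).

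The decapitated WT libraries give another low point for the same genes. BRC1 averaged 1.69 CPM there, so that brc1-2 lay 5.08 lower than decapitated WT on the log2 scale (-5.08; edgeR adjusted p = 7.1e-14). HB40 averaged 0.244 CPM both in brc1-2 and in decapitated WT (0.03; adjusted p = 0.95), HB53 0.155 CPM in brc1-2 and 0.235 CPM in decapitated WT (-0.57; 0.27), and NCED3 0.633 CPM in brc1-2 and 0.499 CPM in decapitated WT (0.35; 0.27). HB21 averaged 0.439 CPM in brc1-2 and 0.697 CPM in decapitated WT (-0.67; 0.065). None of these last differences passed the test, and over all genes 24.1% were called higher and 24.4% lower in brc1-2 than in decapitated WT. This comparison uses the same brc1-2 libraries as the one with intact WT.

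**Figure D1:**
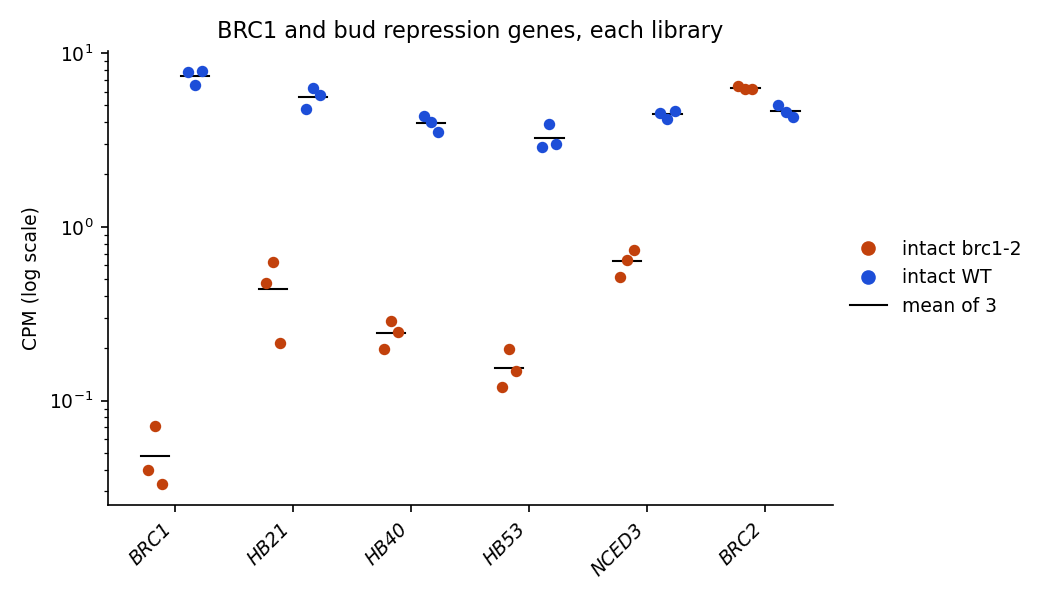
CPM on a log axis of BRC1, HB21, HB40, HB53, NCED3 and BRC2 in each brc1-2 and intact WT library, with a black line at the mean of 3. BRC1 is near 0.05 CPM in brc1-2 and above 6.5 CPM in intact WT, and the HD-ZIP genes and NCED3 are low in brc1-2. BRC2 is slightly higher in brc1-2 than in intact WT, a call that ended with the length trend removed.

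Differences between brc1-2 and WT ran through the whole transcriptome, and most were small. Of the 21539 genes tested 6546 (30.4%) rose in brc1-2 and 6577 (30.5%) fell. At least 2-fold higher were 589 genes (2.73%) and at least 2-fold lower 953 genes (4.42%). The median size of a called difference was 0.39 on the log2 scale, and 70.3% of called genes differed by less than 1.5-fold. Replicates were close: the biological coefficient of variation, estimated in common over genes, was 5.11%. All counts of gene groups below are to be read against these shares and against the median over all genes of 0.00. Since each library is a mixture of tissues, fewer cells of a type and less RNA per cell cannot be told apart.

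Long genes were called higher more often than short ones. The tested genes were split by exon length into 5 classes of near-equal size. In the longest class, 2538 to 16614 bases, 2418 of 4307 were higher and 690 lower in brc1-2, with a median of 0.21. In the class with 42 to 1082 bases 813 were higher and 1362 lower, with a median of -0.07, and in the class with 1083 to 1518 bases 927 were higher and 1642 lower. What lies behind this relation with length was not tested. With a smooth trend on length removed, 6426 genes were higher and 6348 lower, and most counts of gene groups that moved with that step are named below.

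**Figure D2:**
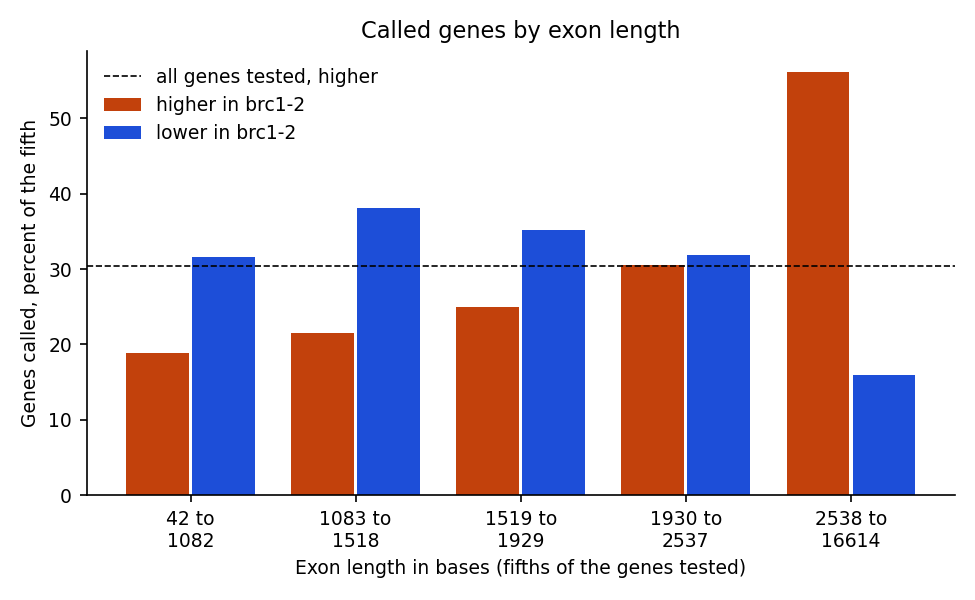
Percent of genes called higher and lower in brc1-2 than in intact WT, in 5 classes of exon length in bases; the dashed line marks the 30.4% of all genes called higher. The longest class has the most genes called higher and the fewest called lower.

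The genes that define the labelled tissue were present in both genotypes, though not all at the same level. Of 24 meristem and boundary genes tested 5 rose, 7 fell and 12 were not called. Their log2 differences ran from -0.65 to 1.05. STM, the homeobox gene that keeps shoot meristem cells undifferentiated, averaged 44.1 ± 1.34 CPM in brc1-2 and 46.2 ± 0.966 CPM in WT (log2 difference -0.07; edgeR adjusted p = 0.18). The boundary genes CUC2 (3.28 CPM in brc1-2 and 3.29 CPM in WT), CUC3 (2.12 and 1.92 CPM) and LAS (0.741 and 0.87 CPM), which mark the leaf axil, were not called, nor were CUC1, MYB37 and MYB84. Of the 9 root markers PYK10 was well above 0, as given in the next paragraph, and the other 8 averaged at most 0.308 CPM in either genotype. RHD6 and RSL4, which drive root hairs, had 0 counts in all 6 libraries. The seed storage genes CRU2, CRU3, SESA3 and SESA4 also had 0 counts.

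Marker lists of other cell types differed between the genotypes by unequal amounts in sum. The tapetum list, described below with the floral organ list, summed to 56.7 to 59 CPM in brc1-2 and 21.7 to 22.8 CPM in WT. The 40 leaf photosynthesis genes summed to 115695 to 117136 CPM in the brc1-2 libraries and 96976 to 97970 CPM in WT. The 7 phloem genes summed to 389 to 400 CPM in brc1-2 and 506 to 520 CPM in WT, and 4 of the 6 tested fell, with PP2-A1, a phloem lectin, at -0.95. The 19 secondary wall genes of xylem summed to 310 to 316 CPM in brc1-2 and 309 to 317 CPM in WT. The 9 root genes summed to 178 to 182 CPM in brc1-2 and 305 to 324 CPM in WT, nearly all of it from PYK10, a beta-glucosidase gene (179 CPM in brc1-2 and 317 CPM in WT; -0.82). The 11 seed storage genes summed to 9.76 to 10.7 CPM in brc1-2 and 16 to 18.8 CPM in WT. Only 2 of the 11 were tested, with 1 called lower (-0.75), and 5 had 0 counts in all 6 libraries. The part that such differences in tissue make-up have in the results below was not tested.

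Abscisic acid responses were lower in brc1-2 across nearly the whole list of genes known to be induced by that hormone, by drought or by cold. Of its 23 genes 22 were tested, 19 fell, none rose, and 15 fell at least 2-fold, with a median log2 difference of -1.19. The summed level was 1177 to 1188 CPM in the brc1-2 libraries and 2593 to 2613 CPM in WT. LEA7 was not tested, and COR15B (0.11), NAC019 (-0.10) and AT3G15500 (0.72), listed as NAC3, were not called.

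GolS2, which makes the protective sugar galactinol, showed the pattern clearly. It had 7.26, 7.58 and 7.89 CPM in brc1-2, against 62.8, 60.7 and 59.2 CPM in WT, and fell 8.02-fold (-3.00 ± 0.07; edgeR adjusted p = 4.5e-23). LEA4-5, a late embryogenesis abundant protein gene, had 0.0397, 0.215 and 0.0986 CPM in brc1-2, against 7.56, 5.56 and 6.78 CPM in WT (-5.77 ± 0.29). RD22, a dehydration-responsive gene, had 231, 237 and 234 CPM in brc1-2, against 563, 563 and 570 CPM in WT (-1.27 ± 0.03). In each of these genes the highest brc1-2 library lay under the lowest WT library. KIN2, a cold-induced gene, had 99.8, 106 and 103 CPM in brc1-2, against 369, 382 and 366 CPM in WT (-1.85 ± 0.03). Its neighbour KIN1 (-2.74) is a near-identical copy, so the split of reads between them is uncertain. Among the others, LTI65 (-2.20), LTI30 (-1.91), GolS1 (-1.54), RAB18 (-1.42), COR15A (-1.22), RD20 (-1.21), P5CS1 (-1.18), which makes proline, RD26 (-1.12), HB-7 (-1.08) and ERD14 (-1.02) also fell by more than 2-fold.

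Among genes of abscisic acid perception and signalling more transcripts were lower than higher. Their levels do not tell whether signalling itself was weaker. Of 30 genes for abscisic acid receptors, phosphatases, kinases and bZIP factors 25 were tested, 16 fell and 4 rose (median -0.38). The count of 4 was 1 without both WT library 3 and brc1-2 library 2b. HAI1 (AT5G59220), a PP2C phosphatase gene that the hormone itself induces, had 3.87, 4.24 and 4.68 CPM in brc1-2, against 15.1, 15.1 and 14.1 CPM in WT (-1.78 ± 0.10; edgeR adjusted p = 2.1e-15). HAI2 (-2.04), PP2CA (-0.70), ABI2 (-0.53) and ABI1 (-0.41), of the same phosphatase clade, fell too. ABI5 (AT2G36270), a bZIP factor of seed and stress responses, had 0.734, 1.27 and 1.1 CPM in brc1-2, against 5.69, 5.65 and 5.23 CPM in WT (-2.40 ± 0.18; edgeR adjusted p = 3.9e-12). Receptor genes went both ways: PYL4 rose to 62.2 ± 1.75 CPM in brc1-2, against 45.1 ± 1.24 CPM in WT (0.46), while RCAR1 (-0.66) and PYR1 (-0.39) fell.

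Synthesis and breakdown of the hormone were less uniform. Of 15 genes 12 were tested, 7 fell and 1 rose (median -0.18), and NCED3 and CYP707A4 were the ones that fell at least 2-fold. CYP707A4 encodes an 8'-hydroxylase that breaks abscisic acid down, and averaged 6.1 ± 0.622 CPM in brc1-2 and 12.4 ± 0.858 CPM in WT (-1.02). The gene that rose was ABA3 (0.40), a molybdenum cofactor sulfurase needed for the last oxidation.

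Markers of bud dormancy and of sugar starvation went both ways. Of 26 genes 12 fell and 6 rose, with a median of 0.01. DYL1 (DRM1), a dormancy-associated gene, had 12.2, 11.1 and 12.9 CPM in brc1-2, against 37.2, 34.9 and 34.7 CPM in WT (-1.56 ± 0.07; edgeR adjusted p = 6.8e-18). DRM2 (AT2G33830; -1.20), EXL4 (-1.08), the F-box gene KMD1 (AT1G80440; -0.99) and EXL2 (-0.83) fell with it. Among the 6 that rose was DIN2, named for induction by darkness. It had 2.24, 3.06 and 3.17 CPM in brc1-2, against 0.439, 0.193 and 0.148 CPM in WT (3.46 ± 0.32; edgeR adjusted p = 2.2e-10), and DIN10 (0.91) rose. The senescence gene SEN1 (0.50), the asparagine synthetase gene ASN1 (0.47) and the proline dehydrogenase gene ERD5 (0.63) rose too.

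Most genes in a joint list of the strigolactone and karrikin pathways were lower. Of 19 genes of synthesis, perception and response, 12 fell and 4 rose, with a median of -0.31. These counts do not separate the pathways. CCD8, a carotenoid cleavage dioxygenase of strigolactone synthesis, averaged 3.03 ± 0.239 CPM in brc1-2 and 6.15 ± 0.398 CPM in WT (-1.02 ± 0.13; edgeR adjusted p = 8.1e-08), with 15.7% of its exon bases in common with another gene. CCD7 (-0.96), the cytochrome P450 gene CYP711A1 (MAX1; -0.43), the F-box gene MAX2 (-0.50) and the repressor gene SMXL8 (AT2G40130; -0.64) fell. The strigolactone receptor gene D14 (AT3G03990; -0.31) and the karrikin receptor gene KAI2 (-0.79) fell too. The isomerase gene D27 rose (0.78), as did SMXL2, SMXL3 and SMXL4, long genes with differences of 0.30 to 0.38. With the length trend removed 1 gene of the list was called higher in place of 4.

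Jasmonate synthesis, signalling and defence output were lower in brc1-2. Of 40 genes 38 were tested, 27 fell, 14 of them at least 2-fold, and 3 rose (median -0.66). The summed level was 1761 to 1793 CPM in brc1-2 and 3133 to 3179 CPM in WT. PDF1.2 (AT5G44420), a plant defensin gene induced jointly by jasmonate and ethylene, had 5.26, 5.66 and 4.42 CPM in brc1-2, against 185, 184 and 170 CPM in WT, a 35.3-fold fall (-5.14 ± 0.06; edgeR adjusted p = 3.1e-30). The similar copies PDF1.2c (-6.30), PDF1.3 (-4.90) and PDF1.2b (-2.78) also fell, and the share of reads that each holds is uncertain. ORA59, the ERF factor that joins both hormones at this promoter, had 5.54, 6.73 and 4.57 CPM in brc1-2, against 19.2, 19.9 and 19.5 CPM in WT (-1.80 ± 0.11).

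Enzyme genes at several steps of jasmonate synthesis fell. LOX2 (-0.61) makes the first oxygenation, AOS follows with 79.5, 79.8 and 82 CPM in brc1-2, against 187, 186 and 194 CPM in WT (-1.23 ± 0.03), then AOC1 (-1.43), OPR3 (-0.65) and the conjugating enzyme gene JAR1 (-0.53). AOC1 to AOC4 are near-identical copies and all were called lower. Of the 12 JAZ repressor genes 7 fell and none rose, with TIFY7 (JAZ9; -1.26) and JAZ7 (-1.72) past 2-fold, and the bHLH factor genes MYC3 (-0.51) and MYC4 (-0.92) fell. MYC2 was listed at 0 in every library and was not tested. The vegetative storage protein genes split: VSP2 averaged 115 ± 1.53 CPM in brc1-2 and 264 ± 3.97 CPM in WT (-1.20), while VSP1 averaged 204 ± 3.68 CPM in brc1-2 and 122 ± 3.32 CPM in WT (0.75). They are similar genes, and the authors' read assignment bears on both. With the length trend removed 1 gene of the list was called higher in place of 3.

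Ethylene genes went both ways. Of 24 genes 21 were tested, 7 rose and 7 fell, each a share close to that over all genes. All 4 that rose at least 2-fold encode ACC synthases, which make the precursor of ethylene. ACS5 had 1.25, 1.16 and 1.1 CPM in brc1-2, against 0.0798, 0.14 and 0.13 CPM in WT (3.29 ± 0.50; edgeR adjusted p = 1.7e-06), and ACS4 had 0.834, 1 and 1.2 CPM in brc1-2, against 0.14, 0.14 and 0.111 CPM in WT (2.94 ± 0.43). ACS11 (1.21) and ACS2 (1.15) rose less. ERF1, an ethylene-responsive factor gene, had 0.615, 0.967 and 1.04 CPM in brc1-2, against 5.51, 4.28 and 4.69 CPM in WT (-2.45 ± 0.22; edgeR adjusted p = 1.3e-10), and the F-box genes EBF1 (-0.61) and EBF2 (-0.59), which are induced by ethylene, also fell.

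Salicylic acid and camalexin genes leaned the other way. Of 23 genes 21 were tested, 11 rose and 5 fell (median 0.16). PR1, the standard marker of salicylic acid responses, had 17.3, 17.5 and 19.2 CPM in brc1-2, against 3.93, 3.16 and 4 CPM in WT (2.29 ± 0.12; edgeR adjusted p = 8.8e-16). The camalexin synthesis genes PAD3 (1.24 ± 0.30) and CYP71A13 (3.27 ± 0.63) rose. CYP71A13 had 1.07, 0.358 and 0.46 CPM in brc1-2, against 0.0998, 0 and 0.0927 CPM in WT, and 22.1% of its exon bases overlap another gene. Other members fell, among them PR5 (-0.39), PAD4 (-0.46) and the transporter gene EDS5 (-0.46).

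Most glucosinolate genes were lower. These sulfur-rich defence compounds of the cabbage family are made from methionine or tryptophan. Of 27 genes 26 were tested, 22 fell, 13 of them at least 2-fold, and 3 rose (median -1.07). MAM1, which lengthens the methionine chain, had 512, 513 and 528 CPM in brc1-2, against 1408, 1394 and 1428 CPM in WT (-1.45 ± 0.02; edgeR adjusted p = 6.4e-27). CYP79F1, the first P450 of the methionine branch, had 333, 314 and 320 CPM in brc1-2, against 977, 1002 and 995 CPM in WT (-1.62 ± 0.03). BCAT4 (-1.76), an aminotransferase gene with 21.2% of its exon bases shared, CYP83A1 (-1.44) and the sulfotransferase gene SOT17 (-1.53) fell similarly.

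The regulators and the tryptophan branch of glucosinolates were lower as well. MYB29, an activator of the methionine branch, had 77.9, 75.9 and 71.6 CPM in brc1-2, against 189, 192 and 191 CPM in WT (-1.35 ± 0.03). MYB28 (-0.57) and MYB76 (-1.92), which share that role, fell. In the tryptophan branch CYP79B3 (-1.19), CYP79B2 (-0.56), CYP83B1 (-0.68) and the MYB genes MYB34 (-0.37) and MYB51 (-0.41) fell. The genes that rose act on finished glucosinolates: the myrosinase genes TGG1 (0.17) and TGG2 (0.16) and ESM1 (0.46), an epithiospecifier modifier.

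**Figure D3:**
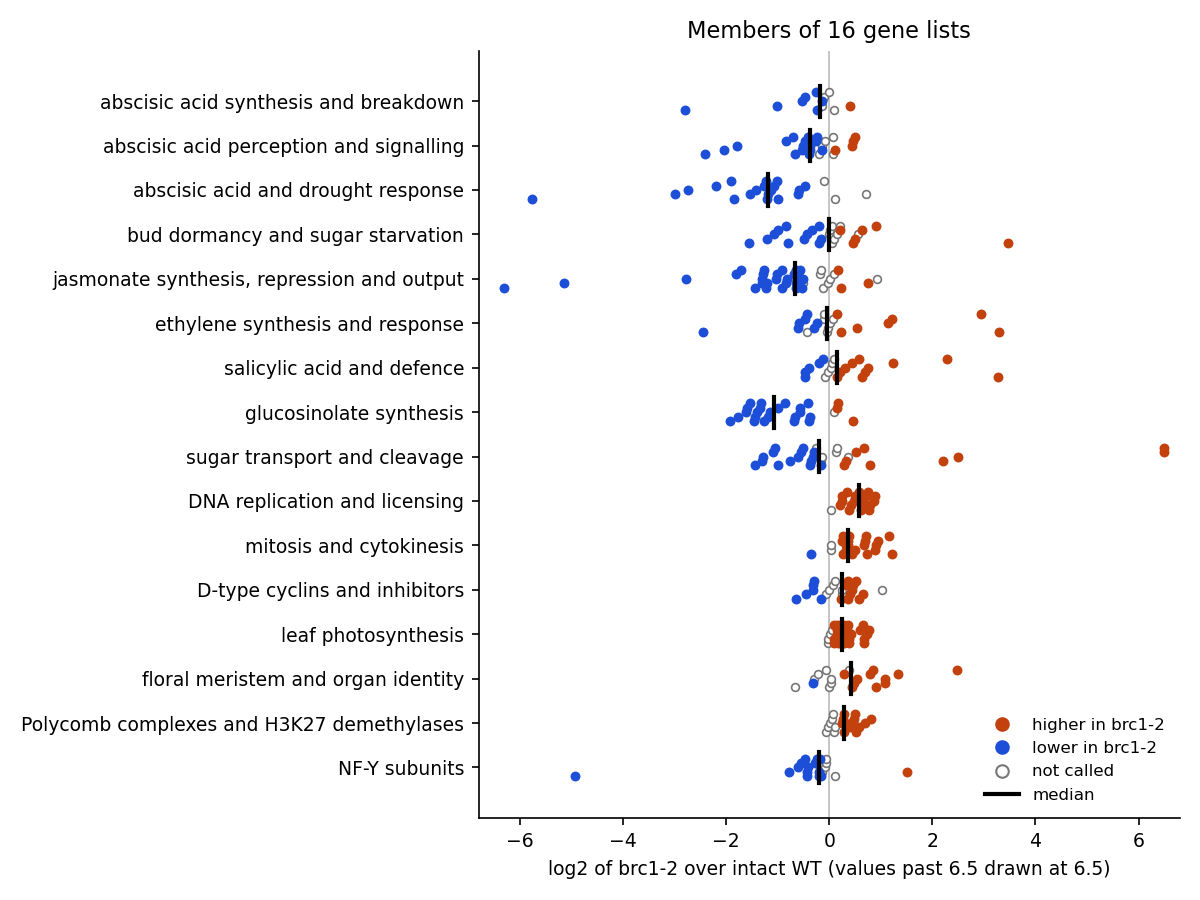
Log2 of brc1-2 over intact WT for each tested member of 16 gene lists, coloured where called higher or lower and open where not called, with a black bar at the list's median. SWEET3 and SWEET7, which had 0 counts in WT, are drawn at 6.5; the abscisic acid response, glucosinolate and jasmonate lists lie mostly left of 0 and the replication, mitosis and photosynthesis lists mostly right of it.

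**Figure D4:**
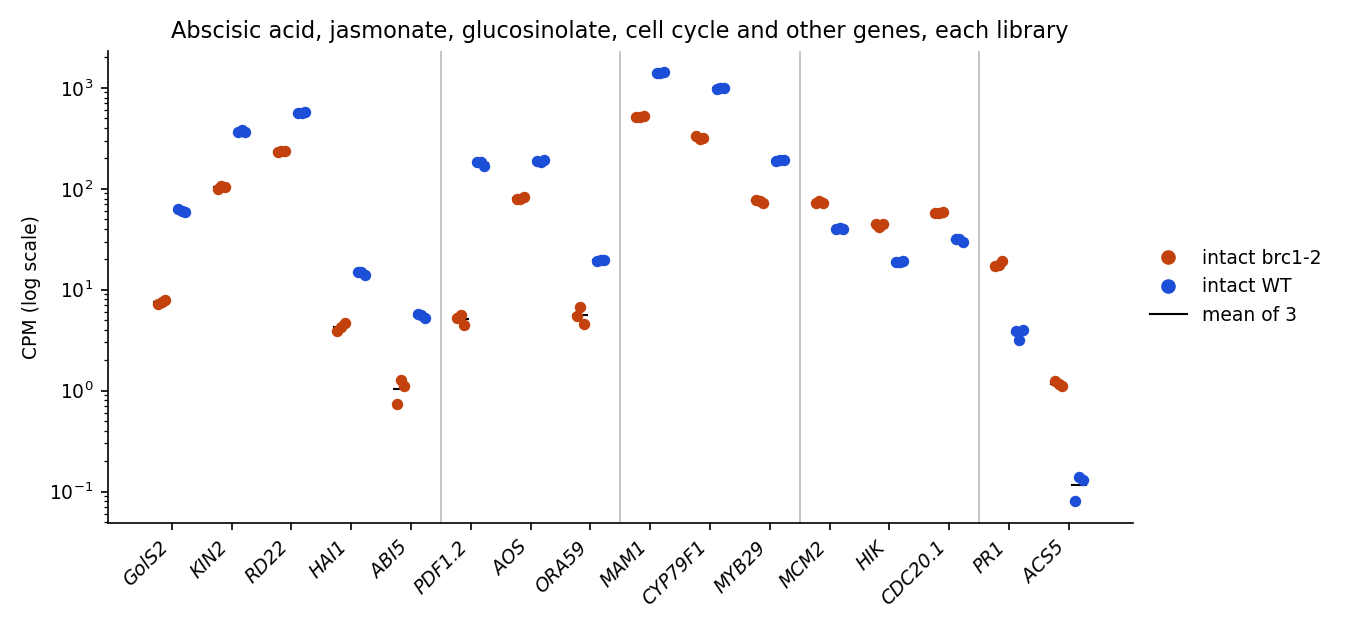
CPM on a log axis in each brc1-2 and intact WT library for 16 genes of abscisic acid, jasmonate, glucosinolate, cell cycle, salicylic acid and ethylene processes, with a black line at the mean of 3. The libraries of a genotype lie close together; MCM2, HIK, CDC20.1, PR1 and ACS5 are higher in brc1-2 and the other 11 genes lower.

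Cell division genes were higher, replication genes almost without exception. Of 19 DNA replication genes 18 rose and none fell, with a median of 0.58, and the summed level was 1074 to 1095 CPM in brc1-2 and 741 to 746 CPM in WT. MCM2, a subunit of the replicative helicase, had 71.8, 75 and 72.4 CPM in brc1-2, against 40, 40.6 and 40.1 CPM in WT (0.86 ± 0.04; edgeR adjusted p = 2.8e-17). The polymerase alpha gene ICU2 (0.89) and the DNA ligase gene LIG1 (0.79) rose by a similar amount. All 16 genes with an MCM or ORC symbol that were tested rose, with a median of 0.57.

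Of 26 mitosis genes 23 rose and 1 fell (median 0.36). HIK (HINKEL), a kinesin that builds the cell plate, had 44.8, 41.6 and 44.4 CPM in brc1-2, against 18.8, 18.6 and 19.2 CPM in WT (1.21 ± 0.05; edgeR adjusted p = 1.3e-17). CDC20.1, an activator of the anaphase-promoting complex, averaged 58.1 ± 0.55 CPM in brc1-2 and 31.1 ± 1.25 CPM in WT (0.90), and the B-type cyclin CYCB3;1 rose 2.24-fold (1.16). The member that fell was CDC2 (CDKA;1; -0.36), a cyclin-dependent kinase that is also active outside mitosis. With decapitated WT, which shares the brc1-2 libraries, the differences of brc1-2 were -0.01 for MCM2 (edgeR adjusted p = 0.79), -0.74 for HIK and -0.81 for CDC20.1.

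Entry into the cycle was less uniform: of 23 genes for D-type cyclins, inhibitors and the RBR and E2F factors 10 rose and 6 fell. RBR1, the retinoblastoma homologue, averaged 110 ± 3.25 CPM in brc1-2 and 70 ± 1.64 CPM in WT (0.65). CYCD1;1 (0.52) and the E2F genes E2F3 (0.57) and E2F1 (0.36) rose. CYCD3;1, a cyclin tied to cytokinin, differed by 0.07 and was not called. Of the inhibitors, SIM (-0.45) and LGO (-0.65), which promote endoreduplication, and KRP2 (-0.32) fell, while ICK1 (0.47) rose; SIM and LGO share 31.4% and 40.3% of their exon bases with other genes. Of 21 histone genes tested 18 rose and 2 fell (median 0.21), and of 51 genes with an RPL or RPS symbol, cytosolic and organellar, 40 rose and 4 fell (median 0.21).

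Photosynthesis genes were higher by small amounts. Of 40 nuclear genes 39 were tested, 35 rose and none fell, all by less than 2-fold (median 0.24). RBCS3B, a small subunit of Rubisco, had 4216, 4263 and 4247 CPM in brc1-2, against 2646, 2729 and 2682 CPM in WT (0.66 ± 0.02; edgeR adjusted p = 8.1e-22). The chlorophyll-binding protein genes CAB2 (0.67) and LHB1B1 (0.68) rose, and LHB1B2 was listed at 0. These genes have near-identical copies, and the reads of a single copy are uncertain. Of 19 epidermal genes 14 rose and 2 fell (median 0.41). These included the homeobox genes ATML1 (0.46) and PDF2 (0.52), and the stomatal lineage genes MUTE (0.86), FMA (0.57), SPCH (0.47) and SDD1 (0.96). KCS6, a wax synthesis gene, fell (-0.89).

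Floral organ genes were higher more often than lower in brc1-2. Of 22 genes 20 were tested, 11 rose, 4 of them at least 2-fold, and 1 fell (median 0.41). PI, a B-class gene of petals and stamens, had 12.7, 14.3 and 15.4 CPM in brc1-2, against 5.81, 5.54 and 5.39 CPM in WT (1.34 ± 0.10; edgeR adjusted p = 9.7e-13). Its partner AP3 rose to 8.77 ± 0.259 CPM in brc1-2, against 4.68 ± 0.191 CPM in WT (0.91). SEP3, which joins the floral complexes, had 9.82, 10.6 and 10.7 CPM in brc1-2, against 4.87, 4.84 and 4.87 CPM in WT (1.09 ± 0.09). SEP1 (1.08), SEP2 (0.79), the C-class gene AG (0.84) and AP1 (0.54) also rose, SEP1 with 35.8% of its exon bases shared. LFY, which specifies floral meristems, averaged 4.04 ± 0.161 CPM in brc1-2 and 4.71 ± 0.775 CPM in WT and was not called (-0.22). AP2 was the member that fell (-0.31). SPL (SPOROCYTELESS), which starts the sporogenous cells of anthers and ovules, had 0.853, 1.04 and 0.822 CPM in brc1-2, against 0.12, 0.175 and 0.185 CPM in WT (2.47 ± 0.40).

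Some genes of the tapetum, the cell layer that feeds developing pollen and builds its sporopollenin wall, had few or no counts in WT and more in brc1-2, while DRL1, LAP6 and TKPR2 had a solid level in both. The list holds 22 genes, and 14 were tested. Most of these passed the filter on low counts through the brc1-2 libraries, so their number and median are no evidence on the list. The 8 that were not tested were MS5, A7, GRP19, GRP17, VGD1, VGDH1, CWINV2 and LTP12, of which A7, VGD1 and VGDH1 had 0 counts in all 6 libraries. The summed level of the list was 56.7 to 59 CPM in brc1-2 and 21.7 to 22.8 CPM in WT. AT5G07230, entered as A9, was dropped from the list because that symbol did not match, and is given below with the largest rises.

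The tapetum genes span regulators and wall enzymes. AMS (AT2G16910), a bHLH regulator of the tapetum, had 5.12, 4.41 and 4.52 CPM in brc1-2, against 0.239, 0.0351 and 0.0371 CPM in WT (5.52 ± 0.36), and 12% of its exon bases overlap another gene. ACOS5 (AT1G62940), a fatty acyl-CoA synthetase of sporopollenin synthesis, had 7.72, 7.13 and 7.31 CPM in brc1-2, against 0.02, 0.0351 and 0.111 CPM in WT (6.99 ± 0.28). LAP5, a polyketide synthase gene, had 3.47, 4.46 and 4.31 CPM in brc1-2, against 0.219, 0.175 and 0.167 CPM in WT (4.44 ± 0.29). In each of them every brc1-2 library was many times higher than every WT library. MS1 and CYP703A2 had 0 counts in WT. Taking 3 counts over the WT group as the limit that a count of 0 allows, MS1 was at least 11.6-fold higher in brc1-2, and for CYP703A2 the bound is 33.2-fold. MYB80 had 22, 15 and 22 counts in brc1-2, against 0, 0 and 2 counts in WT, a ratio of 28.5 (95% counting interval 7.55 to 241).

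Some tapetum genes had a solid level in WT too. DRL1, a reductase gene, had 14.1, 14.1 and 14 CPM in brc1-2, against 5.75, 6 and 7.38 CPM in WT (1.14 ± 0.10), LAP6 averaged 9.91 ± 0.191 CPM in brc1-2 and 6.65 ± 0.286 CPM in WT (0.58), and TKPR2 averaged 11.1 ± 0.952 CPM in brc1-2 and 8.83 ± 0.635 CPM in WT (0.34). In decapitated WT, AMS averaged 0.592 CPM and ACOS5 0.537 CPM, so that brc1-2 was higher than decapitated WT by 2.98 for AMS and 3.78 for ACOS5.

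**Figure D5:**
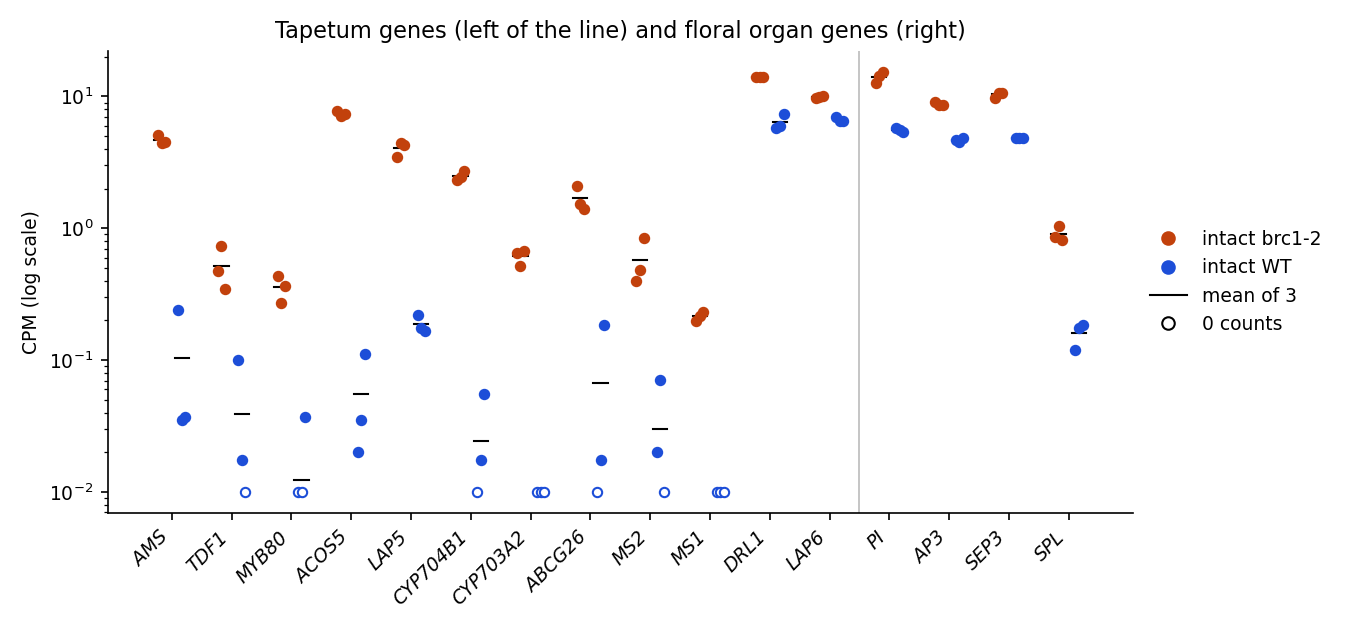
CPM on a log axis of 12 tapetum genes and, right of the line, 4 floral organ genes in each brc1-2 and intact WT library. Open circles mark 0 counts and are drawn at 0.01. The tapetum genes lie far higher in brc1-2, except DRL1 and LAP6, which are also present in WT, and the floral organ genes lie about 2-fold higher or more.

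The largest rises included several genes with no count in WT. AT5G52160 (chromosome 5, 21195044 to 21195763), to which the reference gives no name, had 921, 1030 and 1075 counts in brc1-2 and 0 in every WT library, and was at least 975-fold higher. For MEE48, named for an arrest of embryos with a maternal effect, the bound is 427-fold. LCR66, a defensin-like gene, was higher by 170-fold or more, AT4G29980 by 141-fold or more and the SKU5-similar gene sks18 by 136-fold or more. The sugar transporter gene SWEET3 was at least 98.6-fold higher, with bounds of 71.5-fold for AT1G66850 and 61.2-fold for SWEET7. Also in this group were AT5G62080 (8.74), AT5G07230 (7.06) and AT3G07450, the last with a ratio of 359 (95% counting interval 99.1 to 2971). AT5G07230 is the gene entered as A9 in the tapetum list and dropped from it. AT1G64795 had 523, 643 and 623 counts in brc1-2, against 3, 0 and 0 in WT, a ratio of 576 (interval 197 to 2798), but 70.6% of its exon bases overlap another gene. In all, 32 of the 21539 tested genes had 0 counts in every WT library and 10 had 0 counts in every brc1-2 library. Of the 32, 8 averaged at least 1 CPM in brc1-2. Such genes passed the low-count filter only through other libraries, decapitated WT included, so these numbers are no evidence on direction.

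Among the largest falls were genes of unknown name beside those already described. AT3G17520 (chromosome 3, 5999174 to 6000447) had 2, 0 and 0 counts in brc1-2, against 202, 208 and 221 counts in WT, a ratio of WT over brc1-2 of 326 (95% counting interval 90 to 2701). AT4G36700 (-5.21), AT5G66780 (-4.41) and DIP2 (-4.07), which encodes a DBP-interacting protein, were at most 2.06 CPM in any WT library. AT5G15500 had 0.834, 0.573 and 0.345 CPM in brc1-2, against 8.56, 8.46 and 8.51 CPM in WT (-3.89 ± 0.19; edgeR adjusted p = 3.9e-16).

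Sugar transport and sucrose cleavage genes went both ways. Of 33 genes 30 were tested, 15 fell and 9 rose (median -0.21). The 4 that rose at least 2-fold were all SWEET genes, which encode sugar exporters: SWEET3 and SWEET7 as above, SWEET8 (2.21 ± 0.53) and SWEET10. SWEET10 had 3.71, 3.71 and 4.47 CPM in brc1-2, against 0.539, 0.807 and 0.741 CPM in WT (2.50 ± 0.19; edgeR adjusted p = 2.6e-12). Other SWEET genes fell: SWEET17, a vacuolar fructose transporter gene, had 66.4, 65.7 and 62.5 CPM in brc1-2, against 131, 128 and 127 CPM in WT (-0.99 ± 0.03), and SWEET12 (-1.09) and SWEET13 (-1.43), of the group that loads phloem, fell. The sucrose synthase genes SUS3 (-1.30) and SUS1 (-0.76) fell, as did the invertase gene CWINV5 (-1.28). TPS1, the main trehalose 6-phosphate synthase gene, rose (0.67). Of 12 tested genes with a TPS symbol or synonym 2 rose and 6 fell (median -0.18).

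Other hormone pathways had about as many members up as down. Of 32 auxin response genes tested 8 rose and 12 fell. AXR3 (-0.94), an Aux/IAA repressor gene, and the auxin-conjugating enzyme gene DFL1 (-0.84) fell, while IAA29 rose (1.11). The count of 8 was 5 without both WT library 3 and brc1-2 library 2b. Of 24 auxin transport and synthesis genes 9 rose and 8 fell. These included the carrier genes AUX1 (-0.39), LAX3 (-0.63) and PIN5 (-1.39), an intracellular carrier, on the lower side. The auxin synthesis genes TAA1 (0.75), YUC2 (0.68), YUC6 (0.67) and YUC3 (1.61) were on the higher side.

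Of 28 cytokinin genes tested 10 rose and 10 fell. The synthesis genes IPT3, at 21.7 ± 0.483 CPM in brc1-2 and 39.1 ± 2.35 CPM in WT (-0.85), and IPT5 (-0.89) fell. The oxidase genes, which break cytokinin down, went both ways, with CKX1 (-0.91; 35.2% of its exon bases shared) lower and CKX3 (1.11) higher. Of 23 gibberellin genes tested 8 rose and 10 fell. All 3 receptor genes, GID1A (-0.75), GID1B (-0.29) and GID1C (-0.67), fell, and the synthesis genes GA20OX1 (0.56) and GA3OX1 (0.57) rose. The inactivating enzyme genes split, with GA2OX8 (3.44 ± 0.59) higher and GA2OX4 (-2.32 ± 0.68) lower, both at 0.635 CPM or less in every one of the 6 libraries. Of 16 brassinosteroid genes 4 rose and 6 fell, with the P450 gene ROT3 lower at 10.8 ± 0.361 CPM in brc1-2 and 26.5 ± 1.45 CPM in WT (-1.30) and BR6OX1 higher (1.29).

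Wall-loosening genes, the expansins and xyloglucan endotransglucosylases, also split, with 10 higher and 13 lower of 32 tested. XTH24 had 94.1, 94.3 and 90 CPM in brc1-2, against 338, 339 and 332 CPM in WT (-1.86 ± 0.03; edgeR adjusted p = 1.2e-26), and XTH7 had 64.8, 66.4 and 68.5 CPM in brc1-2, against 208, 209 and 210 CPM in WT (-1.65 ± 0.03). Their relatives XTH18 (1.16) and XTH19 (1.34) rose, to means of 2.31 and 2.37 CPM in brc1-2, against 1.03 and 0.937 CPM in WT. Of 24 flavonoid genes tested 10 fell and 4 rose. PAP1 (MYB75, AT1G56650), an activator of anthocyanin synthesis, had 7.68, 8.76 and 8.64 CPM in brc1-2, against 31, 30.2 and 30.9 CPM in WT (-1.87 ± 0.07). MYB113 (-1.66), DFR (-1.12), LDOX (-0.73) and the anthocyanin transferase gene GSTF12 (-0.80) fell. The flavonol synthase gene FLS1 (0.48) and the flavonol regulator gene MYB111 (0.78) rose, and TT4, chalcone synthase, differed by 0.02 and was not called. Of 20 phenylpropanoid genes 8 rose and 9 fell, with CCR2, a cinnamoyl-CoA reductase gene, at -1.64. Of 19 secondary wall genes 4 rose and 6 fell; with the length trend removed 1 was called higher.

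Meristem, flowering and light genes went both ways. Of 24 meristem and boundary genes tested 5 rose and 7 fell. The count of 7 was 4 without both WT library 3 and brc1-2 library 2b, and the count of 5 was 3 with the length trend removed. Of 25 flowering-time genes tested 5 rose and 8 fell. TFL1, which keeps shoot meristems indeterminate, had 7.1, 7.09 and 6.41 CPM in brc1-2, against 15.1, 15.9 and 14.9 CPM in WT (-1.16 ± 0.09; edgeR adjusted p = 2.4e-12), and the floral repressor gene SVP (-0.48) fell. The photoperiod gene CO (-1.17) fell too, with 25.4% of its exon bases shared. Of 21 light and shade genes 10 rose and 6 fell, with the shade-responsive genes HFR1 (-1.04), PIL1 (-0.93) and PIL2 (-1.21) lower and the growth-promoting bHLH genes PRE1 (1.04) and KDR (1.19) higher. Of 20 clock genes tested 6 rose and 5 fell, and PCL1 (LUX) was the one past 2-fold (-1.04). Of 24 nitrogen and phosphate genes tested 7 rose and 8 fell. Of 13 genes tested in a list of heat shock and chaperone genes 1 rose and 3 fell (median -0.16), whereas of 22 genes tested that carry an HSP symbol 13 rose and 3 fell (median 0.22), so the lean depends on which members are counted. Of 13 growth factor genes tested 7 rose and 1 fell, and the count of 1 was 0 without both WT library 3 and brc1-2 library 2b.

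Transcription factor families differed in how many members moved and where. Of 40 ERF genes tested 25 fell, 11 of them at least 2-fold, and 3 rose (median -0.45), with ERF14 at -3.80 ± 0.57 and ERF4 at -1.09. Of 78 NAC genes tested 30 fell, 10 at least 2-fold, and 4 rose (median -0.12). NAC1 had 11, 9.55 and 9.24 CPM in brc1-2, against 32.3, 34.9 and 35.8 CPM in WT (-1.79 ± 0.06), with 36.7% of its exon bases shared, and NAM (-1.71) and NAC2 (AT3G15510; -1.64) fell. Of 89 MYB genes tested 32 fell, 11 at least 2-fold, and 12 rose (median -0.11), with MYB112 at -2.80 ± 0.25. WRKY genes were even, with 18 higher and 17 lower of 57 tested, though 6 of the 18 and 1 of the 17 differed at least 2-fold. Of 20 TCP genes tested 7 rose and 8 fell. Outside the transcription factors, 25 of 40 glutathione S-transferase genes tested fell and 5 rose (median -0.39), with GSTU20 at 805 ± 15 CPM in brc1-2 and 1866 ± 17.7 CPM in WT (-1.21). Of 32 genes with symbols of nitrate and peptide transporters 19 fell and 4 rose (median -0.47), with NRT1.5, which loads nitrate into xylem, at 15.5, 18.7 and 18.6 CPM in brc1-2, against 58.8, 56.6 and 61.1 CPM in WT (-1.74).

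The study's title concerns BRC1, Nuclear Factor Y and epigenetic regulation, and both sets of genes were looked at. Of 22 genes for Polycomb proteins, H3K27 demethylases and related factors 19 were tested, 12 rose and none fell, all by less than 2-fold (median 0.28). This count was not matched for exon length. In the longest class of genes 2418 of 4307 rose, with a median of 0.21. CLF, the main H3K27 methyltransferase of shoots, averaged 34.1 ± 1 CPM in brc1-2 and 24.1 ± 0.743 CPM in WT (0.50 ± 0.05; edgeR adjusted p = 1.6e-09). SWN (0.42), EMF1 (0.48), RING1A (0.81), the chromatin remodeller PKL (0.69) and, on the opposing side, the demethylase genes ELF6 (0.57) and REF6 (0.40) rose. LHP1, listed as TFL2 (-0.07), was not called. The other 6 tested genes that were not called lay between -0.03 and 0.11.

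Of 27 NF-Y subunit genes 22 were tested, 15 fell and 1 rose (median -0.19). The list leaves out some genes with an NF-Y symbol: of all 36 with such a symbol 29 were tested, 16 fell and 5 rose (median -0.17). In the list, the count of 1 higher was 2 with the length trend removed. The count of 15 was 9 with that trend removed, 9 without both WT library 3 and brc1-2 library 2b, and 9 at an adjusted p under 0.01. Most falls were small: NF-YB2 (-0.78; 42.8% of its exon bases shared), NF-YA3 (-0.61) and NF-YA7 (-0.55) were among the larger. NF-YB5 had 0, 0 and 2 counts in brc1-2, against 24, 17 and 28 counts in WT, a ratio of WT over brc1-2 of 35.7 (95% counting interval 9.51 to 301). NF-YB7 rose (1.51 ± 0.46), at 0.619 ± 0.0528 CPM in brc1-2 and 0.211 ± 0.146 CPM in WT. The other genes with an NF-Y symbol that rose, outside the list, were NF-YC12 (0.79), NF-YC13 (0.30), NF-YC11 (0.16) and NF-YB12 (0.14).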

How the data were processed

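Counts per gene were used as deposited by the authors. The submitters' processing notes name, without roles, the build TAIR10 and the tools fastp 0.23.1, featureCounts 2.0.1, HISAT2 2.0.5, DESeq2 1.32.0, cutadapt 3.5 and SAMtools 1.13. No source used here gives the strand setting of the counting, so overlapping and antisense genes are uncertain. Reads were paired, and among counts of 1 to 20 the even ones made up 60.8% to 64.7%.

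The 9 axillary libraries (47462342 to 61228766 counts, 1 batch label) were fitted together with edgeR 4.0.16 in R 4.3.3: filterByExpr with a minimum count of 10 and a total of 15, TMM, the quasi-likelihood test and Benjamini-Hochberg adjustment over 21539 genes. The SE is the size of the log2 difference over the square root of F, and may be too narrow at few counts. Bounds use 3 counts over a group, and counting intervals cover counting error only. Both take each count as a separate read pair. If each mate of a pair was counted, which the sources do not say, the bounds would be lower and the intervals wider. limma 3.58.1 and DESeq2 1.42.0 were alternatives. Replicates differed by more than sampling noise (chi-square over degrees of freedom 3.31 to 4.82 in brc1-2 and 3.42 to 6.01 in intact WT).

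Gene symbols came from a RefSeq table of TAIR10.1, in which 32548 identifiers matched, and otherwise from the authors' count table of seedlings. From either source 11453 identifiers had a symbol. Coordinates are those of the axillary count table. The 39 lists hold 913 entries; 10 whose symbol did not match were dropped. Members and lists were chosen with earlier results of these data known. Genes were named by rule: the 12 largest rises and 12 largest falls among called genes with at least 1 CPM in the higher group and no overlap, all 6 bud repression genes, up to 6 called members per list with the smallest p, those past 2-fold, and genes within 100 kb of BRC1 past 2-fold. Other genes named were chosen after their values were seen.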

Additional observations from a re-analysis of the deposited data

How the results depend on the processing

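Of the counts over all genes, those of genes higher and lower stayed within 1.5 times of the values above under other size factors, DESeq2, limma-voom, no low-count filter, fits of 2 groups, halved counts and a removed length trend. Asking for at least 1 CPM in 3 libraries left 348 genes at least 2-fold higher. Testing against a 1.5-fold change in place of no change left 761 higher and 1283 lower, and most list counts fell with it. No result reversed. Leaving out 1 library at a time gave 6044 to 6147 genes higher and 6116 to 6206 lower, 557 to 630 at least 2-fold higher and 926 to 970 at least 2-fold lower, and against decapitated WT 4656 to 5168 higher and 4733 to 5325 lower. The headings do not say which of the brc1-2 columns headed 2 goes with WT library 3, so the replicate block was fitted both ways, giving 6536 or 6529 higher and 6574 or 6563 lower; it changed no call of the 27 bud repression genes and largest changes. Whether equal numbers pair the libraries cannot be told from their deviations. In these, brc1-2 library 1 correlated at 0.225 with WT library 1 and 0.271 with WT library 2. Deviations cancel within a group, so both values depend on WT library 3. Without both WT library 3 and brc1-2 library 2b, an alternative chosen after seeing the data, 5753 genes were higher and 5775 lower. The call of BRC2 ended with the length trend removed and against a 1.5-fold change. Tapetum genes called higher numbered 8 with at least 1 CPM in 3 libraries. Depth limits genes of few counts: 377 of the 589 genes at least 2-fold higher lay in the lowest of 5 classes of mean level. That class also held 415 of the 953 genes at least 2-fold lower.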
